A study of Rattus norvegicus with 18 samples.

Results

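Mu-class glutathione S-transferases were described in whole kidneys of 18 rats, 9 S.SHR(2) congenics and 9 Dahl salt-sensitive (Dahl S) animals, each hybridised to its own Affymetrix Rat Genome 230 2.0 array. The Dahl S animals are inbred SS/Jr rats, which develop hypertension and kidney damage, and S.SHR(2) was derived from SS/Jr and the spontaneously hypertensive rat SHR/NHsd. The 2 in its name stands for chromosome 2, the source of the SHR segment. The labels give no bounds of that segment, so whether it holds the genes described here is not stated by them. Only 2 Dahl S rats carry further labels: both are males on 0.3% NaCl, 1 aged 4 weeks and 1 aged 12 weeks. The design text names male rats at 3 ages, but no rat was placed in an age group here, since the labels of the other rats give no age. The records fall into 3 deposit blocks of 6, each with 3 S.SHR(2) and 3 Dahl S rats. A deposit block is the order of the records and no condition. Replicate numbers, 1 to 9 in each strain, follow the same order and do not come from the labels. The labelled rat of 4 weeks is in block 1 and that of 12 weeks in block 2, and the labels do not say what else differs between blocks.

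The members are Gstm1, Gstm2, Gstm4, Gstm5 and Gstm7, 5 of 14863 genes that the platform annotation names. They were selected on the strain difference over these same 18 arrays, known from earlier work, so the difference between S.SHR(2) and Dahl S is given for them as a description. No p value is given for it, and the counts of members called in that contrast describe the choice and support nothing. Each had 1 probe set that names it alone, and no probe set names several mu-class genes. These are 1386985_at for Gstm1, 1370952_at for Gstm2, 1375909_at for Gstm4, 1370813_at for Gstm5 and 1387023_at for Gstm7. Genes were matched by gene identifier, because symbols of the family were reused: Gstm3 is an older symbol of both Gstm5 and Gstm7, and Gstm4 an older symbol of the gene now named Gstm3. All 5 passed the filter that left out the dimmest 40% of probe sets by their mean over all arrays, although Gstm5 lay at the percentile 59.3 of all probe sets and dropped out when 60% were left out. Paralogs of this family are close in sequence and probe sequences were not used here, so how much of a signal came from a paralog was not tested, nor was the part of bases that differ between the strains under a probe.

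Glutathione S-transferases join the thiol of reduced glutathione to electrophiles, among them drugs, environmental toxins and the aldehydes that lipid peroxidation leaves behind. The mu-class enzymes work as dimers in the cytosol. Many genes of the wider pathway, those for glutathione synthesis included, are induced by the transcription factor NRF2 through antioxidant response elements. In rats, Gstm1 has been studied as a candidate gene for hypertension in the stroke-prone SHR, a relative of the donor strain of this congenic.

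The annotation of GRCr8 lists 9 mu-class genes on chromosome 2, in the order Gstm5, Gstm6l, Gstm7, Gstm6, Gstm3l1, Gstm3, Gstm2, Gstm1 and Gstm4. Of these, 7 have a probe set, the 5 members and also Gstm3 and Gstm6l, while Gstm6 and Gstm3l1 were not analysed here. The upstream sequence of the genes is given as a description, and its part in the strain differences was not tested. RefSeq's promoter table (GRCr8) matched all 5 members. The 250 bases before the annotated start are shown for Gstm1 and Gstm7, the pair with the largest strain differences, for Gstm5, which holds the most antioxidant response element cores, and for Gstm2, whose strain difference varied most between deposit blocks. They are those of the reference rat (BN/NHsdMcwi), not of Dahl S or S.SHR(2), and run 5′ to 3′ on the strand of the gene. Capitals mark 5 motifs found on either strand: the antioxidant response element core TGACNNNGC, the xenobiotic response element core GCGTG, the GC box GGGCGG, the CCAAT box and the TATA box TATAAA.
Gstm1 (chr2:198343384-198343633, minus strand): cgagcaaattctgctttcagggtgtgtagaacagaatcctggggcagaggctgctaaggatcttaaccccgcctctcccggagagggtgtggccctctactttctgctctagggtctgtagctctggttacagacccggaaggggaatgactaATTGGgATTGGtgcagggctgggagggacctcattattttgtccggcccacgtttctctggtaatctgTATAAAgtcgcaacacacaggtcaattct
Gstm7 (chr2:198260320-198260569, minus strand): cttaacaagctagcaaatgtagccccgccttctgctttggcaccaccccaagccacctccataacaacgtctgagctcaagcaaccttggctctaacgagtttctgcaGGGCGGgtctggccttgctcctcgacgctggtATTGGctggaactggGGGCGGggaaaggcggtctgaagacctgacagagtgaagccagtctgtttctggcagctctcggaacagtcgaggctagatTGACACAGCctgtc
Gstm5 (chr2:198219519-198219768, plus strand): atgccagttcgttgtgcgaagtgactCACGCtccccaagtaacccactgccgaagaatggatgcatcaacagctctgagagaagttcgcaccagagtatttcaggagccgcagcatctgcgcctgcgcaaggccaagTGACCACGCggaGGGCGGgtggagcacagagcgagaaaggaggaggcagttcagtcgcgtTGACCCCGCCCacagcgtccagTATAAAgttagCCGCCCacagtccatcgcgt
Gstm2 (chr2:198316918-198317167, minus strand): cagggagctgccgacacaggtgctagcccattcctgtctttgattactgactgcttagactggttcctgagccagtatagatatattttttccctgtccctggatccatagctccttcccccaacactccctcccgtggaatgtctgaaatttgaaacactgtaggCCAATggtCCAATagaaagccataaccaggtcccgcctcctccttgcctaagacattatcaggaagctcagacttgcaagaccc

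The antioxidant response element core was in 2 of the 5 windows, against 10.1% of 33469 promoter windows of the same length. In Gstm5 it began 113 and 53 bases before the start (TGACCACGC and TGACCCCGC), the first overlapping a xenobiotic response element core and the second a GC box. In Gstm7 it began 14 bases before the start (TGACACAGC). Gstm1 and Gstm2 had none in this window. Each of them held a pair of CCAAT boxes, on the opposite strand at 97 and 91 bases before the start in Gstm1 and on the gene's own strand at 84 and 76 bases in Gstm2. CCAAT boxes were in 3 of the 5 windows, against 34.0% of all. A TATA box stood 29 bases before the start of Gstm1 and 31 bases before that of Gstm5, against 12.9% of all windows with one. GC boxes were in 3 windows (Gstm4, Gstm5 and Gstm7), against 30.5% of all, and xenobiotic response element cores in 2 (Gstm4 and Gstm5), against 25.9%. Gstm1 and Gstm7, which had the largest strain differences, thus shared the CCAAT box of these motifs and differed in the other elements found. A match is a description of the letters and no site.

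The arrays had been scaled to 1 trimmed mean each, between 150.046 and 150.054 intensity units. Precision rests on how many rats were measured, since arrays have no read depth. Of 12 kidney markers with a probe set, such as Umod, Lrp2 and Aqp2, all 12 lay in the brighter 60% of probe sets, and none was called between the strains. Their summed intensity was 28930 to 40617 in S.SHR(2) and 26707 to 41551 in Dahl S. Of the 20 markers of other cell types with a probe set, 12 passed the same filter and none was called, with sums of 7964 to 14679 in S.SHR(2) and 8159 to 15195 in Dahl S. Defining genes of liver and adrenal cortex were dim (Alb at a mean of 14.1 in S.SHR(2) and 14.8 in Dahl S, Cyp17a1 at 9.16 and 8.39). A whole kidney holds many cell types, so fewer cells of a type and less RNA per cell cannot be told apart. The ratio of the 3′ to the 5′ probe set of GAPDH, a measure of RNA integrity on the array, was 2.51 for S.SHR(2) replicate 1 of block 1 and 2.04 for Dahl S replicate 5 of block 2, against 1.19 to 1.75 on the other 16 arrays. The strain differences of all 5 members, the Gstm2 values, the block calls and the correlations between members are also given without these 2 arrays.

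Gstm1 and Gstm7 were the members with the largest strain differences, and both were lower in every S.SHR(2) kidney than in any Dahl S kidney. Gstm1 is a major mu-class enzyme of rat liver and is also made in kidney. In S.SHR(2) its intensity was 109.6, 143.3 and 117.3 in block 1, 62.5, 73.1 and 111.8 in block 2, and 84.7, 148.0 and 98.0 in block 3. In Dahl S it was 441.9, 240.9 and 299.5 in block 1, 237.9, 157.7 and 264.5 in block 2, and 359.7, 333.1 and 306.9 in block 3. The highest S.SHR(2) rat, at 148.0, lay just under the lowest Dahl S rat, at 157.7, which is 1 of the 2 arrays with a high GAPDH ratio. The means were 105 ± 29.2 in S.SHR(2) and 294 ± 81.6 in Dahl S (SD, n = 9 each), so that the mean in Dahl S was 2.79 times that in S.SHR(2). On the log2(intensity + 16) scale after quantile normalization the difference, S.SHR(2) minus Dahl S, was −1.33 ± 0.167 (SE of the limma fit).

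Gstm7, another mu-class transferase, had the widest gap between the strains. In S.SHR(2) its intensity was 51.7, 67.0 and 57.0 in block 1, 38.7, 36.8 and 38.9 in block 2, and 31, 42.8 and 45.4 in block 3. In Dahl S it was 224.4, 140.1 and 155.1 in block 1, 137.1, 101.7 and 157.8 in block 2, and 137.6, 130.9 and 158.8 in block 3. All 9 S.SHR(2) rats were thus at or below 67.0 and all 9 Dahl S rats at or above 101.7. The means were 45.5 ± 11.3 in S.SHR(2) and 149 ± 33.2 in Dahl S (SD, n = 9 each), with a log2 difference of −1.38 ± 0.120 (SE). The mean in Dahl S was 3.28 times that in S.SHR(2) in intensities but 2.61 times on the transformed scale, because the pseudocount of 16 weighs on dim values. With a pseudocount of 1 the log2 difference was −1.65 and with 64 it was −0.93, the widest span over the alternatives.

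The other 3 members had smaller log2 differences, between −0.46 and −0.48, and their strain ranges overlapped.

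**Figure D1:**
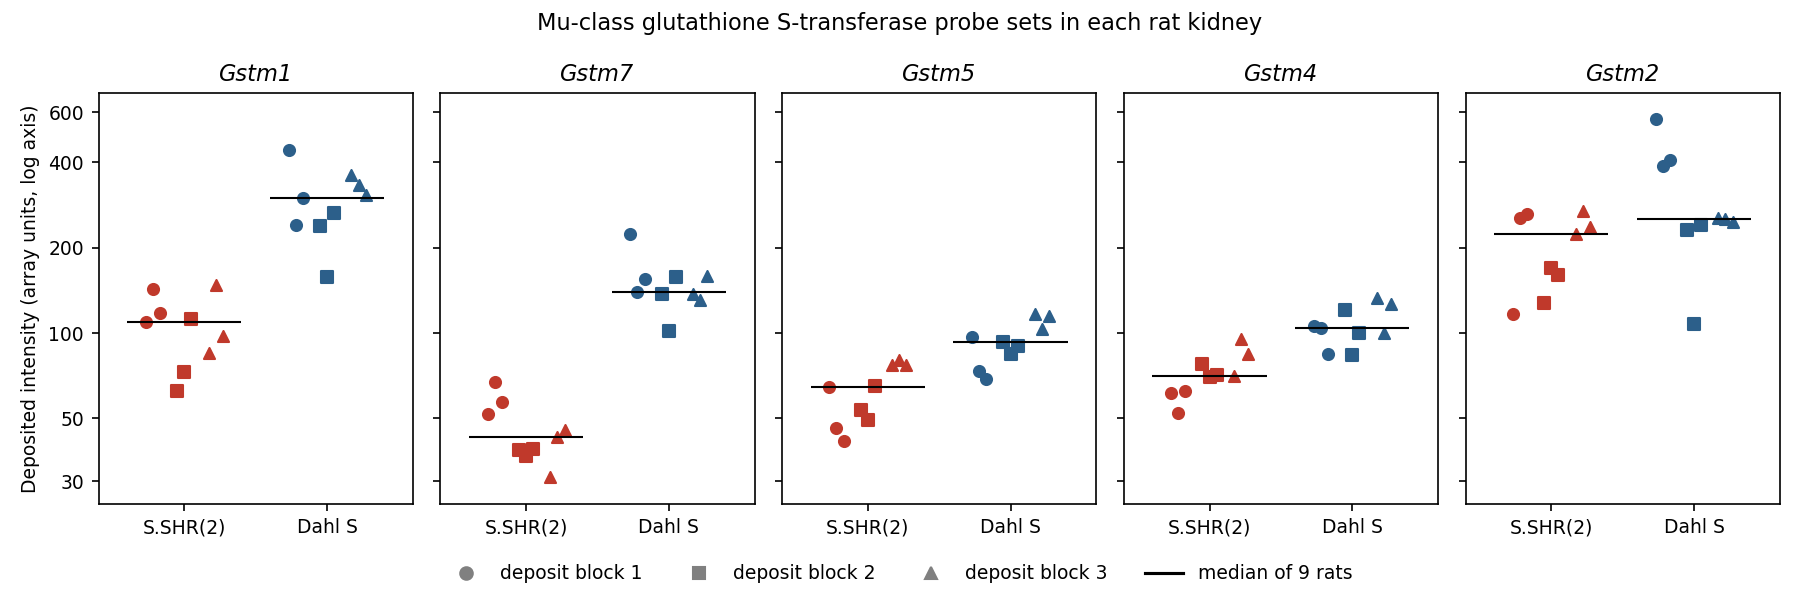
Deposited intensity of the 5 member probe sets in each rat (log axis), S.SHR(2) in red and Dahl S in blue, with the deposit block as the marker and the median of 9 rats as a line. For Gstm1 and Gstm7 all S.SHR(2) points lie below all Dahl S points, at most 148.0 against at least 157.7 and at most 67.0 against at least 101.7, while the strains overlap for Gstm5, Gstm4 and Gstm2.

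For Gstm5 the lowest, median and highest intensity were 41.6, 64.3 and 80.2 in S.SHR(2), against 68.6, 92.8 and 116.5 in Dahl S. Of the 9 S.SHR(2) rats 6 lay below the lowest Dahl S rat, and the 3 that did not were the 3 rats of block 3. The log2 difference was −0.48 ± 0.127 (SE). For Gstm4 the same 3 values were 52.4, 70.6 and 95.2 in S.SHR(2), against 83.6, 104.2 and 133.1 in Dahl S, and 7 of 9 S.SHR(2) rats lay below the lowest Dahl S rat. Its log2 difference was −0.46 ± 0.106 (SE). Gstm2 was at 116.9, 224.4 and 270.5 in S.SHR(2), against 107.5, 252.0 and 569.4 in Dahl S, with a log2 difference of −0.46 ± 0.230 (SE). No S.SHR(2) rat lay below the Dahl S range of Gstm2, a count that rests on Dahl S replicate 5, 1 of the 2 arrays with a high GAPDH ratio. Without that rat the lowest Dahl S value was 231.3 and 5 of 9 S.SHR(2) rats lay below it, and without both arrays 4 of 8 did.

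The members were chosen with the strain contrast known, so the following counts were fixed in large part by that choice and nothing is read from them. In the limma fit over all 18625 tested probe sets, Gstm1 and Gstm7 were called lower in S.SHR(2) at a Benjamini-Hochberg adjusted p under 0.05, 2 of the 5 members, against 0.102% of all probe sets called lower. Both also had ranges that did not overlap between the strains, against 0.0913% of all probe sets with S.SHR(2) the lower. With deposit block as a covariate Gstm4 and Gstm5 were called as well, 4 of the 5 members, against 0.317% of all probe sets called lower in that fit. The 2 mu-class genes outside the rule were dim and left out by the filter. Gstm3 lay at the percentile 23.1 of all probe sets, with 3.8 to 27.0 in S.SHR(2) and 2.9 to 18 in Dahl S, and Gstm6l at the percentile 10.0, with 1.5 to 10.5 in S.SHR(2) and 2.2 to 12.0 in Dahl S. Their strain ranges overlapped, and signal above background was not shown for either.

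Within deposit blocks the strain differences of Gstm1 and Gstm7 were of similar size, while that of Gstm2 ranged more widely. The blocks are parts of the same arrays on which the members were chosen by their strain difference. The signs and the counts without overlap given here were thus fixed in large part by that choice. They are a description, and nothing is read from them. For Gstm1 the log2 difference was −1.27, −1.27 and −1.45 in blocks 1, 2 and 3 (SE 0.224 each). For Gstm7 it was −1.32, −1.46 and −1.37 (SE 0.171 each). Gstm5 gave −0.51, −0.58 and −0.35 (SE 0.156) and Gstm4 gave −0.60, −0.40 and −0.36 (SE 0.150). For these 4 genes the intensities of the 3 S.SHR(2) rats lay below those of the 3 Dahl S rats in every block. All 5 members did so in block 1, against 4.86% of all probe sets, and 4 of 5 in blocks 2 and 3, against 4.95% and 8.46%. The shares of all probe sets were taken on the normalized log2 scale and the member counts on intensities. On the log2 scale Gstm4 overlapped in block 3, with S.SHR(2) replicate 8 at 6.86 and Dahl S replicate 8 at 6.84. Fewer than 4 members were thus apart in block 3 on the scale of the 8.46%. All 15 of these differences by member and block were below 0, and the like share over all probe sets is not given. That of Gstm2 in block 3 turned above 0 without S.SHR(2) replicate 7 or 9 (0.03 and 0.01) and with arrays centred on their medians.

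**Figure D2:**
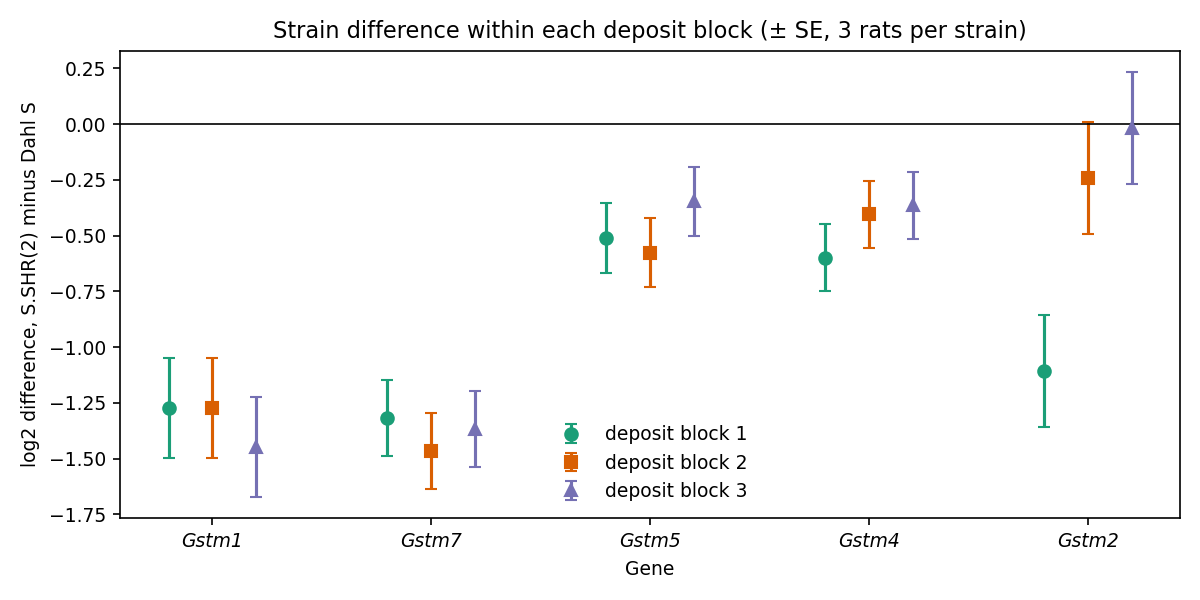
Log2 difference between strains, S.SHR(2) minus Dahl S, for each member in each of the 3 deposit blocks, with the SE of the limma fit over 6 cells of 3 rats. Gstm1 and Gstm7 sit between −1.27 and −1.46 in all blocks, Gstm5 and Gstm4 between −0.35 and −0.60, and Gstm2 runs from −1.11 in block 1 to −0.02 in block 3.

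Gstm2 encodes a further mu-class subunit. In block 1 its intensity was 116.9, 254.5 and 263.1 in S.SHR(2), against 569.4, 387.2 and 409.0 in Dahl S. In block 2 it was 127.6, 169.9 and 160.8 in S.SHR(2), against 231.3, 107.5 and 240.0 in Dahl S. In block 3 it was 224.4, 270.5 and 236.1 in S.SHR(2), against 253.7, 252.0 and 245.6 in Dahl S. The strains were thus apart in block 1 and overlapped in blocks 2 and 3, in block 2 through Dahl S replicate 5 (107.5) alone. The log2 difference in block 2 was −0.59 without that rat, −0.08 or −0.05 without Dahl S replicates 4 or 6, and −0.13 without S.SHR(2) replicate 4. The log2 difference was −1.11, −0.24 and −0.02 (SE 0.251 each), and the difference in block 3 minus that in block 1 was 1.09 ± 0.355. Ordered by their means, the 6 sets of 3 rats ran from Dahl S in block 1 (455 ± 99.5) through Dahl S in block 3 (250 ± 4.27), S.SHR(2) in block 3 (244 ± 24.0), S.SHR(2) in block 1 (211.5 ± 82.0) and Dahl S in block 2 (193 ± 74.1) to S.SHR(2) in block 2 (153 ± 22.3; SD, n = 3 each). The first of these lay above all others without overlap, and each of the remaining neighbours in that order overlapped.

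The interaction of strain and deposit block, tested for all probe sets with an F test of limma, did not pass for Gstm2 after adjustment (unadjusted p = 0.014, adjusted p = 0.73). It passed for none of the 5 members, with adjusted p values of 0.96 for Gstm1 and Gstm7, 0.89 for Gstm4 and 0.90 for Gstm5, against 0.00537% of all probe sets called. At an unadjusted p under 0.05 it held for 1 of 5 members and for 1221 of 18625 probe sets. A strain difference of Gstm2 that differs between blocks was therefore not shown at this number of rats.

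Over all 18 arrays Gstm2 was also the member with the strongest correlation with the GAPDH ratio. The lowest value of block 1, in S.SHR(2) replicate 1, and the lowest of block 2, in Dahl S replicate 5, were those of the 2 arrays with the highest GAPDH 3′/5′ ratio. With the mean of each strain and block taken away, log2 Gstm2 and the log2 ratio correlated at r = −0.852 over the 18 rats, given as a description. How far this r rests on those 2 arrays was not tested. Among the other arrays both directions occurred. In block 1, Dahl S replicate 1 had the lowest ratio of its strain (1.188) and the highest Gstm2 (569.4). In block 2, S.SHR(2) replicate 5 had the highest ratio of its strain (1.745) and also the highest Gstm2 (169.9). For Gstm1 and Gstm7 the same r was −0.481 and −0.522, and for Gstm4 and Gstm5 −0.224 and 0.246. Without these 2 arrays the log2 strain difference of Gstm2 was −0.76, −0.59 and −0.02 in the 3 blocks (SE 0.149, 0.149 and 0.133), with an interaction p of 0.0033 unadjusted and 0.47 adjusted by limma. Over all blocks it was then −0.53 ± 0.191 (SE). The strain differences of Gstm1 and Gstm7 were as large without the 2 arrays, at −1.44 ± 0.158 and −1.46 ± 0.119, and those of Gstm4 and Gstm5 were −0.47 ± 0.110 and −0.50 ± 0.141.

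**Figure D3:**
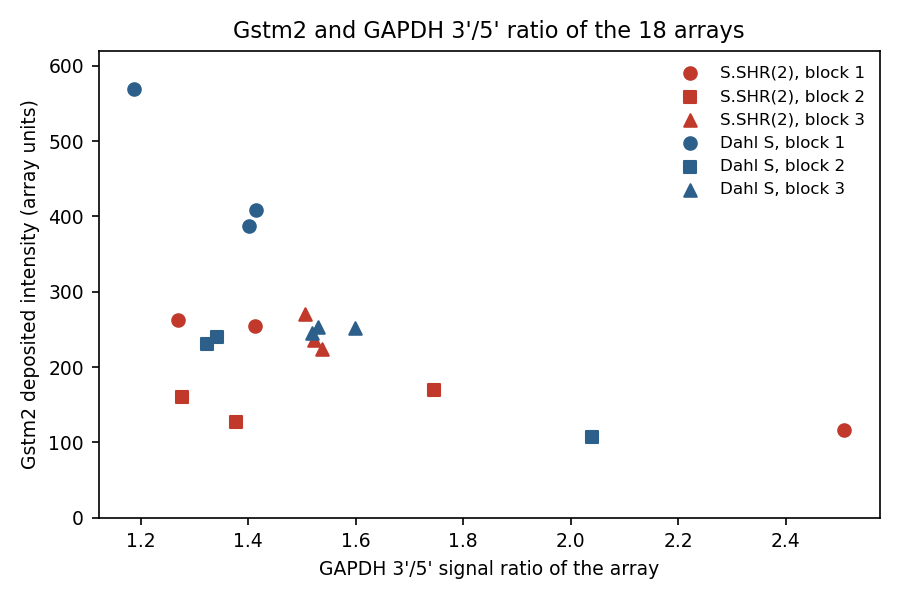
Deposited Gstm2 intensity against the GAPDH 3′/5′ signal ratio of the same array for all 18 rats, S.SHR(2) in red and Dahl S in blue, markers by deposit block. The arrays with ratios of 2.51 and 2.04 hold the 2 lowest Gstm2 intensities, 116.9 and 107.5, and the 3 highest intensities are those of Dahl S in block 1.

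Levels of all 5 members differed between deposit blocks, a measure the choice of members did not use. Each passed the limma F test across blocks, as did 50.1% of all probe sets, so 5 of 5 sets the members little apart from the array as a whole. The members did not share 1 pattern. Gstm2 was lowest in block 2 (block 2 minus block 1: −0.80 ± 0.177, block 3 minus block 2: 0.51 ± 0.177, adjusted p = 0.0027), and so was Gstm1 (−0.53 ± 0.158 and 0.49 ± 0.158, adjusted p = 0.013). Gstm7 was highest in block 1 (block 2 minus block 1: −0.40 ± 0.121, block 3 minus block 1: −0.28 ± 0.121, adjusted p = 0.025). Gstm5 and Gstm4 were highest in block 3, by 0.50 ± 0.110 and 0.35 ± 0.106 over block 1 (adjusted p = 0.0021 and 0.027). Without the 2 arrays of high GAPDH ratio the calls of Gstm1 and Gstm7 were lost (adjusted p = 0.054 and 0.051), with block 2 minus block 1 at −0.45 for Gstm1 and −0.34 for Gstm7. The highest intensity on the arrays of block 3 was 7508 to 9498.5, against 11117 to 14648 in blocks 1 and 2, and its part in these differences was not tested.

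Gstm1, Gstm2 and Gstm7 varied together among rats of the same strain and block. With those means taken away, r over the 18 rats was 0.775 for Gstm1 and Gstm7 (Spearman's rho 0.707), 0.703 for Gstm2 and Gstm7 (rho 0.728) and 0.665 for Gstm1 and Gstm2 (rho 0.827). Without the 2 rats farthest from the median of the first gene the 3 values were 0.766, 0.668 and 0.669, and without the 2 arrays of high GAPDH ratio they were 0.725, 0.668 and 0.689. Of the other 7 pairs, Gstm1 and Gstm5 had the highest r (0.486), which was 0.231 without the 2 farthest rats and 0.681 without the 2 arrays of high GAPDH ratio. Gstm2 and Gstm5 had the lowest (−0.144), which was 0.227 in both checks. For every pair with Gstm2 as the first gene the 2 checks gave equal values, so they do not count as separate checks there. Genes outside the family reached higher r on this measure, up to 0.895 for Gstm1, 0.945 for Gstm2 and 0.909 for Gstm7. Whether these pairs vary together more than other genes of the array was therefore not shown. The part of signal shared between paralogs in these values was not tested.

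Outside the family, the genes with the most similar pattern over the 18 rats were named by a fixed rule. As measured, Gstm7 was closest to Ceacam1, an adhesion molecule (r = 0.835), Wsb1, a ubiquitin ligase subunit (r = 0.811), and Dclk1, a microtubule-associated kinase (r = 0.742). Gstm1 was closest to Msantd2, Fam89a and Mtcl2 (r = 0.789, 0.763 and 0.763). Gstm2 was closest to Sult1a1, a phenol sulfotransferase (r = 0.889), Slc35b1 (r = 0.887) and Thap4 (r = 0.884). For Gstm4 and Gstm5 both lists held Eif5a2, a translation factor (r = 0.880 and 0.856), and Bcl2l14 (r = 0.791 and 0.868), with Garnl3 as the third for Gstm4 (r = 0.789) and Il6r, the interleukin-6 receptor, for Gstm5 (r = 0.839).

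With strain and block means taken away the closest genes were others. They were Rab20, Maea and Chchd5 for Gstm1 (r = 0.895, 0.891 and 0.876), Dpm3, Dpp7 and Psmd6 for Gstm2 (0.945, 0.944 and 0.942) and Ap4b1, Surf6 and Kdelr1 for Gstm7 (0.909, 0.876 and 0.870). For Gstm4 they were Gstcd, Pigy and Srsf7 (0.839, 0.836 and 0.834), and for Gstm5 Zc3h4, Anapc15 and Mccc2 (0.874, 0.867 and 0.852). These are the extremes of 10483 genes and carry no test.

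Among the genes next to the family on chromosome 2, 1 differed between the strains by the test. Of the 10 nearest tested genes on each side, 1 of 20 was called between the strains, against 0.0763% of 10483 genes. It was Celsr2, a cadherin-family receptor at the cell surface and the seventh tested gene beyond Gstm4. It had an intensity of 132 ± 30.1 in S.SHR(2) and 59.6 ± 18.6 in Dahl S (SD, n = 9 each), a log2 difference of 1.0 ± 0.146 (limma adjusted p = 0.0019), opposite in sign to the Gstm genes. Of the 20, 8 differences were above 0 and 12 below, against 5938 above and 4545 below among all genes tested. Their median was −0.01, against 0.02 over all genes tested. By limma 3 of the 20 (Celsr2, Ampd2 and Elapor1) had an unadjusted p under 0.05, against 443 of 10483 genes. Ampd2, an AMP deaminase and the nearest tested gene beyond Gstm4, was at −0.35 ± 0.098 (adjusted p = 0.42), and Csf1, the nearest on the other side, at −0.07 ± 0.155. Elapor1, an endosomal and lysosomal membrane protein, was at −0.47 ± 0.172 and was not called in this fit. With deposit block as a covariate its SE was 0.108 and it was called (limma adjusted p = 0.047). In that fit 2 of the 20 were called, against 0.467% of all genes. Amigo1, an adhesion molecule, was at 0.24 ± 0.144, the leukocyte tetraspanin Cd53 at −0.21 ± 0.350, and the transporter Slc6a17 at 0.19 ± 0.091.

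**Figure D4:**
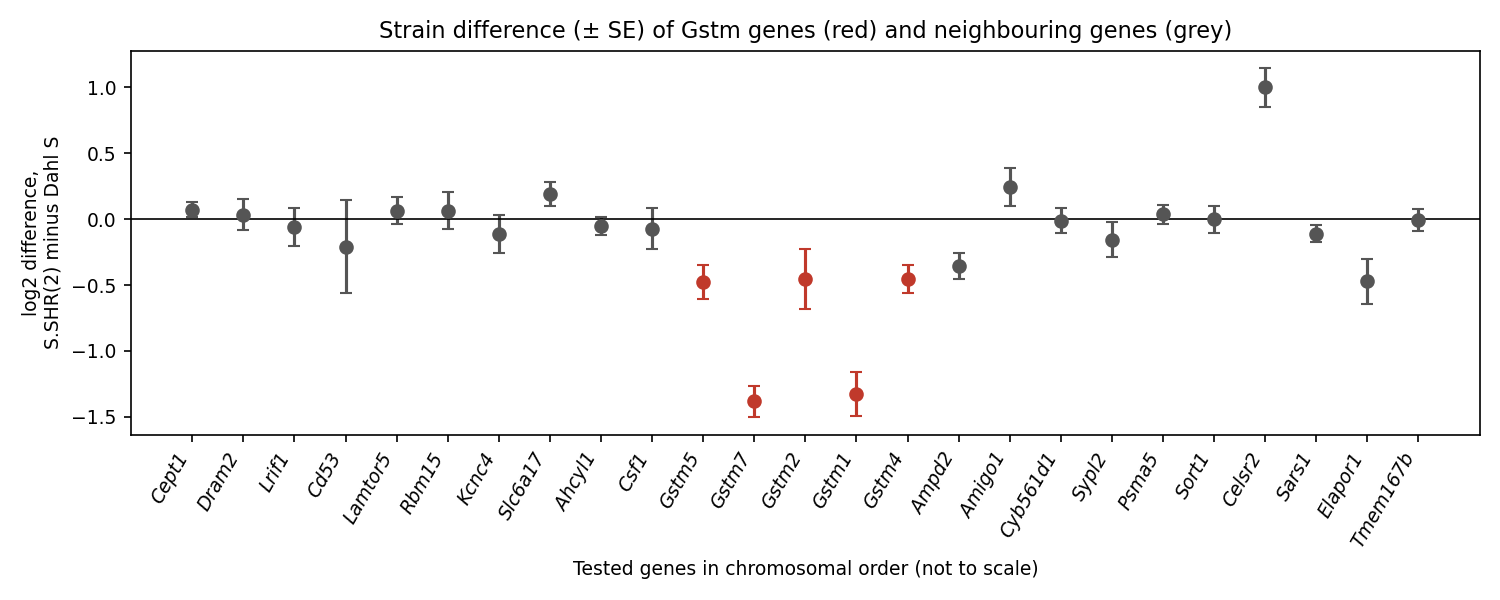
Log2 difference between strains (± SE), S.SHR(2) minus Dahl S, for the 5 Gstm genes in red and the 10 nearest tested genes on each side in grey, in chromosomal order and not to scale. The Gstm genes lie between −0.46 and −1.38, Ampd2 beside them is at −0.35, and Celsr2 is at 1.0.

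Among other genes of glutathione metabolism and the NRF2 response, none passed the test between the strains. Of 40 listed, 34 were tested, 3 fell below the filter and 3 were named only by a probe set shared with another gene. None of the 34 was called by limma and none had an unadjusted p under 0.05, against 443 of 10483 genes. Of the 34 differences 23 were above 0 and 11 below, against 5938 above and 4545 below among all 10483 genes. The median was 0.03, and the range ran from −0.19 to 0.20. Among the transferases of other classes, Gstk1 of mitochondria and peroxisomes was at 903 in S.SHR(2) and 778 in Dahl S (log2 difference 0.20 ± 0.100), Gsto1 of the omega class at 0.17 ± 0.115, Gstt3 of the theta class at 0.07 ± 0.060, and Gstp1 and Gsta1 of the pi and alpha classes at 0.06 ± 0.215 and 0.06 ± 0.262. In glutathione synthesis, Gss was at 0.13 ± 0.074, and the 2 subunits of glutamate-cysteine ligase, Gclm and Gclc, at 0.11 ± 0.092 and 0.04 ± 0.054. The NRF2 gene Nfe2l2 was at 0.01 ± 0.081 and its inhibitor Keap1 at 0.09 ± 0.091. Of the NRF2 targets, Nqo1 was at 88.6 in S.SHR(2) and 88.7 in Dahl S (0.02 ± 0.114) and Hmox1 at −0.19 ± 0.137. A difference of this list that missed the test is not shown to be absent.

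**Figure D5:**
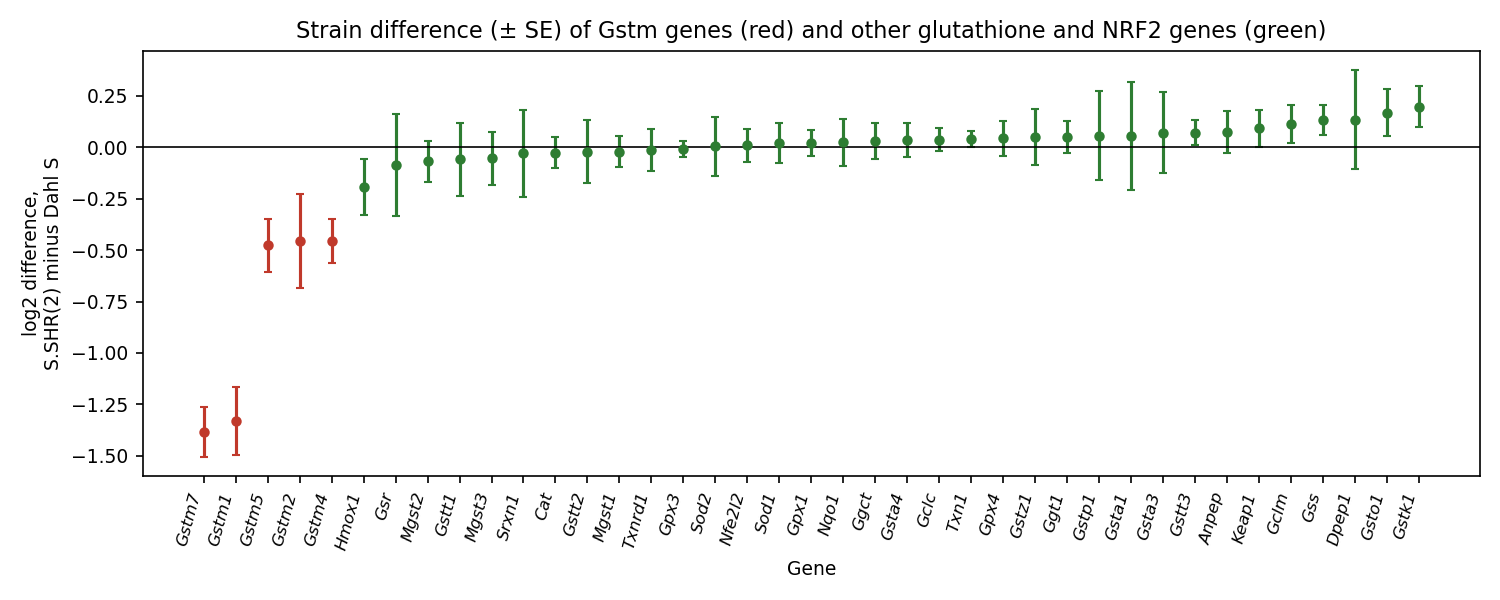
Log2 difference between strains (± SE), S.SHR(2) minus Dahl S, for the 5 Gstm genes in red and the 34 other glutathione and NRF2 genes tested in green, ordered by size. All green points lie between −0.19 and 0.20, and the Gstm genes lie below them.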

How the data were processed

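Kidney RNA of 18 rats was measured, per the labels, on 1 Affymetrix Rat Genome 230 2.0 array each. The values are intensities deposited by the authors, on a linear scale with 1 trimmed mean per array. The labels do not name the software that made them, and neither scanner output nor detection calls entered the work. After removal of 57 controls, 31042 probe sets were converted to log2(intensity + 16) and quantile-normalized, since array medians spanned 0.235. The dimmest 40% by mean were dropped, and 18625 were tested.

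limma 3.58.1 (R 4.3.3; lmFit, eBayes with an intensity trend) gave the strain difference without covariates and, from 6 cells of strain and deposit block, the differences within blocks and the F tests of block and interaction. Tests are two-sided and adjusted by Benjamini-Hochberg over all probe sets, with a threshold of 0.05. Labels do not say whether rats shared a litter or cage, so p values measure the spread between these samples.

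Genes were named from the platform annotation (20826 probe sets name 1 gene, 436 several, 9780 none) through gene identifiers to RefSeq's table of GRCr8, and outside the family each was represented by its brightest probe set. The values come without a genome build, so the only coordinates given are those of RefSeq promoter windows. Members and lists were chosen with earlier results of these data known. Named genes are all Gstm probe sets, up to 6 members of the glutathione list by smallest p (and, added after their values were seen for their role, Gstp1, Gsta1, Gclc, Nfe2l2, Keap1 and Nqo1), the 6 neighbours with the largest differences (Csf1 was added in the same way as the nearest gene), and the 3 most correlated genes per member. Fits were tested on simulated data. Figures were drawn with matplotlib 3.10.9.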

Additional observations from a re-analysis of the deposited data

How the results depend on the processing

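Alternatives were pseudocounts of 1 and 64, values as deposited, arrays centred on their medians, no filter or a 60% filter, eBayes without trend or robust, array weights, an adjusted p of 0.01, deposit block as a covariate, each block fitted alone (only for the differences within blocks, where neither Gstm1 nor Gstm7 was called in block 1), and each rat left out in turn. The fit without the 2 arrays of highest GAPDH ratio was chosen after seeing the data. No paired analysis was possible because the labels carry no replicate numbers, and those used here only count the records in order. In the alternatives run for the strain difference over all blocks, which chose the members, Gstm1 and Gstm7 stayed on the same side of the threshold, and their log2 differences were −1.46 to −1.05 and −1.65 to −0.93. The strain differences of Gstm2 (−0.61 to −0.33), Gstm4 (−0.54 to −0.31) and Gstm5 (−0.58 to −0.31, not tested under the 60% filter) stayed below 0. With deposit block as a covariate 4 members and 2 neighbours were called, and with array weights Gstm4 was called as well (−0.47). Members called by block numbered 2 at an adjusted p of 0.01, 3 without the 2 arrays of high GAPDH ratio, and 3 to 5 without 1 rat each. Block calls were lost for Gstm1 without Dahl S replicate 5 (block 2 minus block 1: −0.43) or S.SHR(2) replicate 4 (−0.45), for Gstm7 without Dahl S replicates 1 or 5 (−0.30 and −0.32) or S.SHR(2) replicate 2 (−0.36), and for Gstm4 without Dahl S replicates 3, 7 or 9 (0.11, 0.16 and 0.16) or S.SHR(2) replicates 2 or 8 (0.12 and 0.16). No member passed the interaction test in any of these fits. The Gstm2 difference in block 3 minus that in block 1 ranged from 0.73 to 1.28. The number of member differences within blocks below 0, fixed in large part by the choice of members, was 15. It was 14 without S.SHR(2) replicates 7 or 9 and with arrays centred on medians. Under the 60% filter, which left out Gstm5, it was 12 of 12. The glutathione list had no call in any fit. Scaling moved the median of all probe sets by less than 0.1. Signal over background could not be judged without detection calls.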
